A study of Homo sapiens with 26 samples.

Results

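Beads coated with Fc, the antibody constant region, carry no Notch ligand and stand as the control for beads coated with the ligand JAG1-Fc. The 3 arrays of cells given Fc beads were set against the 3 arrays of cells given a soluble control IgG, 6 of the 26 arrays of a study of NOTCH3 signalling. The cells were MDA-MB-468, a long-established line of basal-type human breast cancer. Both groups had first received 5 µM DAPT, a gamma-secretase inhibitor that blocks Notch cleavage, for 16 h, and then 2 h of plain medium without it. The first group then received Fc beads, and the second received the control IgG, anti-gD, at 20 µg/ml. Both were harvested 24 h later. The groups therefore differ in the beads and their Fc and also in the soluble IgG, and these cannot be told apart. The sources used here do not give the amount of beads.

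The 4 other groups of the same experiment, with 3 arrays each, served as reference levels. These were cells kept in 0.05% DMSO and never given DAPT, cells given DAPT again after the washout, cells given 20 µg/ml of the NOTCH3 agonist antibody A13, and cells given JAG1-Fc beads, the last 3 after the same DAPT pretreatment. Members were chosen by the treatment label. Whether the 3 arrays of each group stem from separate cultures is not stated in the labels, so the p-values reflect only how these arrays scatter, and that scatter may be technical.

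As background, a cell meets heme, iron, oxidants and foreign surfaces with a few well-known transcription programmes. The factor NRF2 is held low by KEAP1 and, once released, switches on genes that make glutathione and thioredoxin and that reduce reactive carbonyls. BACH1 represses several of the same genes, HMOX1 above all, until heme releases it. Iron sets the level of the transferrin receptor transcript, TFRC, which is degraded when iron is plentiful. ATF4 serves amino acid shortage and misfolded protein, and YAP responds to the cell's mechanical state.

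Of 19775 genes tested, 411 passed at an adjusted p under 0.05, a share of 2.08%. Of these, 324 were higher with Fc beads (1.64% of all genes) and 87 were lower (0.44%). Changes were small, and the median change over all genes was −0.012 on the log2 scale. Only 5 genes rose by at least 2-fold (GPNMB, HMOX1, AKR1C3, AKR1C2 and CXCL8) and 1 fell by as much (CLCA2). At an unadjusted p under 0.05 the number of genes was 2893. When the quantile normalization was repeated over the 18 arrays, 340 genes passed higher and 200 lower, so that 63% of calls were higher against 78.8% as deposited.

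The count depended on which arrays were fitted. It was 144, 316 and 239 without Fc bead array 1, 2 and 3, and 141, 361 and 249 without IgG array 1, 2 and 3. It was 61 when only these 6 arrays were fitted. Each of these fits holds fewer arrays, and how much of the loss comes from that alone was not tested. Of 101 passing genes followed singly, 35, 15 and 26 lost their call without Fc bead array 1, 2 and 3, and 40, 13 and 28 without IgG array 1, 2 and 3. GPNMB, HMOX1, AKR1C3, CXCL8, EGR1, RELB, TXNRD1, TFRC, CLCA2, MUCL1 and AGR2 were among 35 that kept it in every setting run. CXCL8 and EGR1 have only cross-hybridising probe sets, so the setting that leaves these out could not be run for them. All 10 epithelial markers examined were above the level of the median gene, 7.85. Of the other cell types' markers, 3 of 12 leukocyte genes (CD79A, CD14 and CORO1A), 1 of 10 fibroblast genes (COL1A1) and 1 of 8 endothelial genes (PECAM1) were above it. The summed intensity of the leukocyte list was 2882 to 3011 on the IgG arrays and 2546 to 2706 on the Fc bead arrays, and its part in the results below was not tested. CD14 was the only one of these 30 non-epithelial markers to pass. Its level was 10.36, 10.31 and 10.39 with IgG and 10.02, 10.13 and 9.93 with Fc beads. The call was lost when any of these arrays but Fc bead array 2 was left out, and when only these 6 arrays were fitted.

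The largest change on the arrays was in GPNMB, which encodes a glycoprotein of lysosomes and melanosomes. Its log2 intensity was 7.88, 8.01 and 8.0 on the IgG arrays and 9.98, 9.70 and 9.81 on the Fc bead arrays. The groups did not overlap and the Fc bead arrays were also above all 12 arrays without beads. Here and below, lack of overlap is description only, since the same arrays made the calls. For the 20 largest rises and 20 largest falls it was also part of the rule that named them. Over all genes, 10.7% had Fc bead arrays wholly above the IgG arrays and 9.45% had them wholly below. The log2 change was 1.86 ± 0.08 (SE; adjusted p = 1.28e-10), a 3.64-fold rise, and a dimmer second probe set of the gene gave 1.75. Of 29 lysosomal genes measured, the only others to rise were SQSTM1, the autophagy receptor p62 (0.52 ± 0.07), and NPC1, the lysosomal cholesterol transporter (0.30 ± 0.07). The median of the list was 0.02, and the hydrolase genes CTSD and CTSB changed by 0.02 and 0.08 without passing. SQSTM1 lost its call when cross-hybridising probe sets were left out, and NPC1 lost its call when any Fc bead array, IgG array 1 or IgG array 3 was left out.

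**Figure D1:**
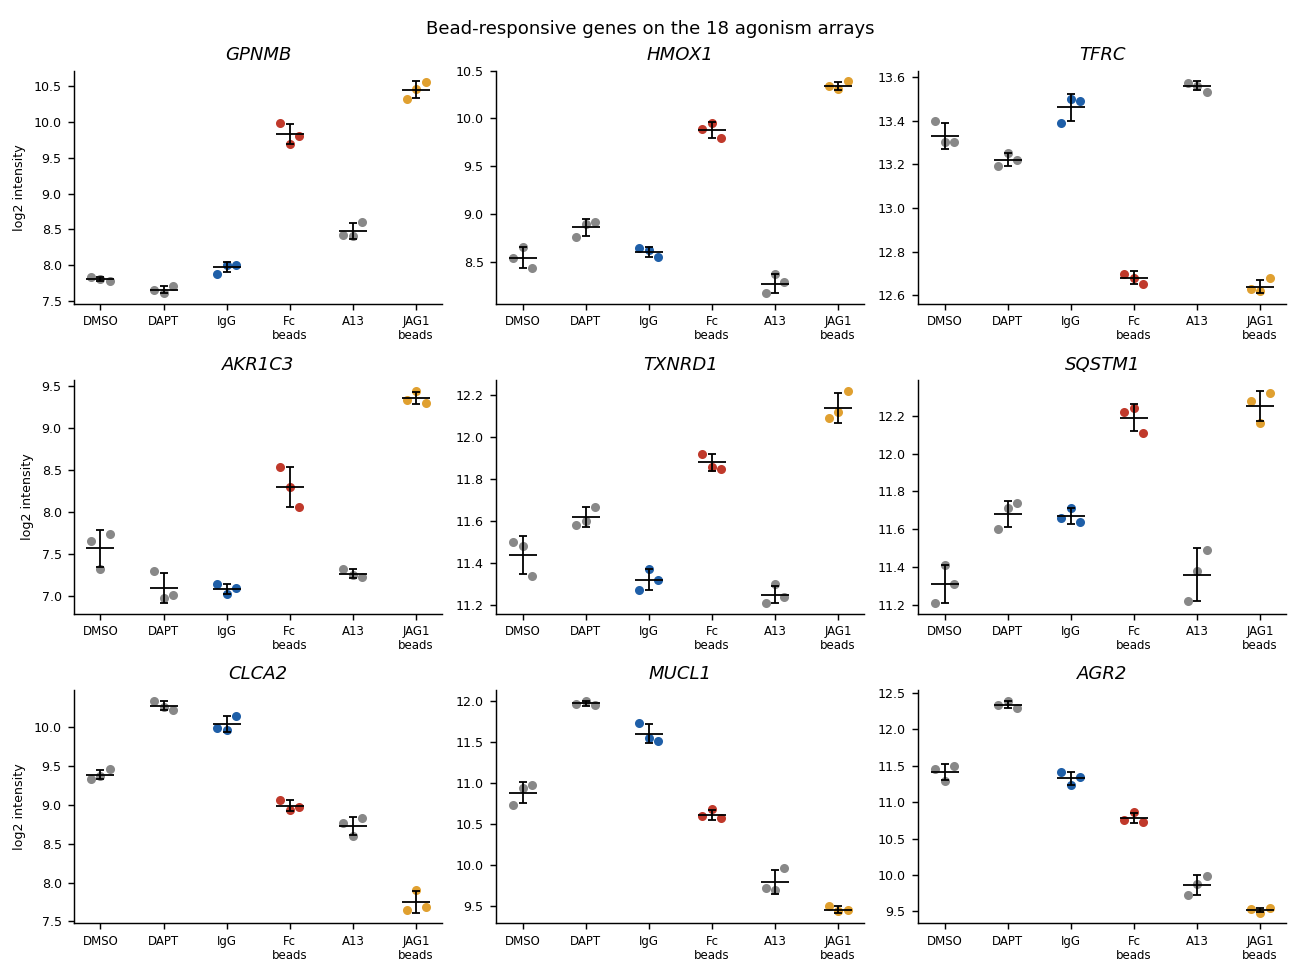
Log2 intensity (y axis) of 9 genes on the 18 agonism arrays by group (x axis). Each point is 1 array, and the bar with whiskers is the group mean ± SD over 3 arrays. GPNMB, HMOX1, AKR1C3, TXNRD1 and SQSTM1 are higher and TFRC, CLCA2, MUCL1 and AGR2 lower on the Fc bead arrays (red) than on the IgG arrays (blue). The y ranges differ between genes and do not start at 0.

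Heme and iron genes moved in both directions. HMOX1, which encodes the inducible heme oxygenase that breaks heme down, was at 8.64, 8.62 and 8.55 with IgG and at 9.89, 9.95 and 9.80 with Fc beads. The 3 Fc bead arrays lay more than a log2 unit above each IgG array. The change was 1.27 ± 0.07 (SE; adjusted p = 6.43e-09), or 2.42-fold. TFRC, the transferrin receptor through which cells take up iron, was at 13.39, 13.50 and 13.49 with IgG and at 12.70, 12.68 and 12.65 with Fc beads. The groups did not overlap, and TFRC fell by 0.78 ± 0.05 (SE; adjusted p = 6.22e-08). A pair of its other probe sets both gave −0.89. The dimmest ones, with mean levels of 6.5 and 4.46, gave −0.18 and −0.22. In bulk RNA such a fall cannot be told apart from a loss of cells that express the gene.

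The remaining iron genes moved less. SLC11A2, the iron transporter DMT1, was at 10.41, 10.40 and 10.40 with IgG and at 10.18, 10.12 and 10.01 with Fc beads, a fall of 0.30 ± 0.06 (SE; adjusted p = 0.0113). BACH1, the heme-sensing repressor of HMOX1, rose by 0.33 ± 0.08 with an adjusted p of 0.0466. Both calls were lost without Fc bead array 3 or IgG array 1, and that of BACH1 also without Fc bead array 1 or IgG array 2, after median centring and after repeated quantile normalization. BACH1 gave 0.08 with the mean of all its probe sets, and SLC11A2 gave −0.02 without cross-hybridising probe sets. The other 17 of the 21 iron and heme genes did not pass, among them the ferritin light chain gene FTL (0.10), the iron exporter gene SLC40A1 (−0.09), the iron regulatory gene ACO1 (−0.09) and the constitutive heme oxygenase gene HMOX2 (−0.08). The list's median was −0.09.

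NRF2 targets rose as a group of single genes. Of 28 measured, 12 passed higher and 0 lower, where 1.64% of all genes passed higher, and 26 of the 28 changes were above 0. The list's median was 0.26, against −0.012 over all genes. The passing members ran from ABCC1, a glutathione-conjugate pump (0.25), to AKR1C3 (1.21). Those members serve several arms of the programme. TXNRD1, thioredoxin reductase, was at 11.27, 11.37 and 11.32 with IgG and at 11.92, 11.86 and 11.85 with Fc beads, a change of 0.56 ± 0.06 (SE; adjusted p = 3.74e-05). The arrays of the 2 groups were clearly apart, by more than the range within either.

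Both subunits of glutamate-cysteine ligase, the first enzyme of glutathione synthesis, rose. The catalytic subunit gene GCLC was at 10.80, 10.88 and 10.82 with IgG and at 11.40, 11.28 and 11.25 with Fc beads (0.47 ± 0.07). The modifier subunit gene GCLM was at 12.07, 12.14 and 12.07 with IgG and at 12.46, 12.47 and 12.44 with Fc beads (0.36 ± 0.05). Neither pair of groups overlapped. NQO1, the quinone reductase most used as an NRF2 readout, was already high at 12.78, 12.79 and 12.75 with IgG and reached 13.06, 13.09 and 13.06, a change of 0.30 ± 0.05 (SE; adjusted p = 0.00511). ME1, the NADPH-making malic enzyme, rose by 0.39 ± 0.05, AKR1B10, an aldo-keto reductase, by 0.41 ± 0.06, and SRXN1, sulfiredoxin, by 0.27 ± 0.05. SLC7A11, the cystine importer, changed by 0.43 ± 0.11 and narrowly missed the threshold (adjusted p = 0.0504). NFE2L2, which encodes NRF2 itself, and KEAP1 both changed by 0.14 and did not pass.

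The 3 largest NRF2-list changes were in the aldo-keto reductases of family 1C, which reduce steroids and reactive aldehydes. AKR1C3 was at 7.15, 7.03 and 7.10 with IgG and at 8.54, 8.30 and 8.06 with Fc beads (1.21 ± 0.12, adjusted p = 1.2e-05). AKR1C2 was at 12.11, 12.03 and 12.17 with IgG and at 13.15, 13.17 and 13.11 with Fc beads (1.04 ± 0.06). AKR1C1 was at 12.49, 12.38 and 12.50 with IgG and at 13.36, 13.36 and 13.32 with Fc beads (0.89 ± 0.07). Groups did not overlap for any of them. These genes are near-identical copies, and the AKR1C1 and AKR1C2 probe sets are of the kind that can detect related transcripts, so their separate values are uncertain. A dim probe set of AKR1C2 that is not of that kind gave −0.02, and one of AKR1C1 gave 0.14. Without such probe sets 6 of 24 NRF2 targets rose, and with these 6 arrays alone 5 of 28 did.

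Short stretches before the gene starts are shown for the 3 of 9 passing NRF2 targets with a promoter in the RefSeq table (GRCh38.p14) that held TGACNNNGC, letters to which NRF2 with a small MAF partner often binds. They were searched on both strands in the 250 bases before each listed start. Each stretch is written 5′ to 3′ on the gene's strand with the match in capitals, and TXNRD1 has 2 listed starts. GCLM lies at chr1:93909431-93909494 (minus strand), ME1 at chr6:83431150-83431218 (minus strand) and TXNRD1 at chr12:104215650-104215718 and chr12:104286900-104286968 (plus strand).
GCLM: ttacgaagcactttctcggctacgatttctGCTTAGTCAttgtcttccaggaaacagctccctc
ME1: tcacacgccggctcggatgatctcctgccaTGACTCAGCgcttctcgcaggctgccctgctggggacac
TXNRD1 upstream start: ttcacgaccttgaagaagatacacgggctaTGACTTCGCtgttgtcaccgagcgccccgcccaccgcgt
TXNRD1 downstream start: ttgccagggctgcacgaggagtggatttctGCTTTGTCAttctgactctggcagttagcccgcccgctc
In GCLM and at the downstream start of TXNRD1 the match reads on the opposite strand. Over all genes tested, 11.7% of 21466 windows of this length held the letters, and of 448 windows of the genes called higher 10.7% did, so the called genes as a whole held them about as often as any gene. The letters TGANTCA, which AP-1 factors bind, can overlap the first motif (as in the ME1 match). They stood in 9.15% of the windows of genes called higher and in 5.35% of all. In the 88 windows of genes called lower the share was 7.95%, so it was not particular to the genes called higher. These are matches of letters, not measured binding, and enhancers outside the windows were not searched.

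**Figure D2:**
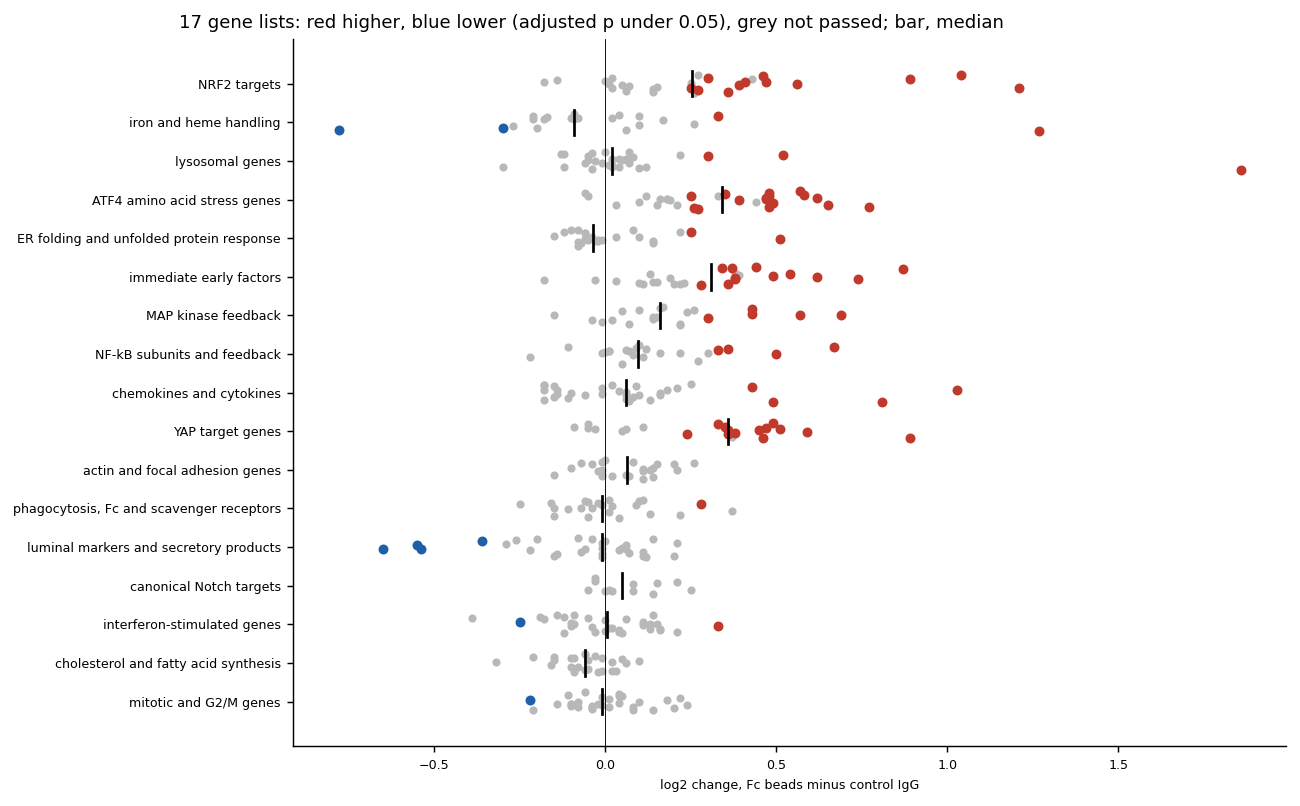
Log2 change with Fc beads against control IgG (x axis) for every measured member of 17 gene lists (rows). Red points passed higher, blue points passed lower, grey points did not pass, and the black bar is the list's median. NRF2 targets, ATF4 genes, immediate early factors and YAP targets hold 12, 17, 12 and 13 red points and 0 blue points, while the canonical Notch targets are all grey.

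Genes of the ATF4 amino acid response also rose: 17 of 30 measured passed higher and 0 lower. Of all genes 1.64% passed higher, and the list's median was 0.34. STC2, a secreted glycoprotein induced by ER stress, was at 9.48, 9.87 and 9.64 with IgG and at 10.48, 10.19 and 10.62 with Fc beads, a change of 0.77 ± 0.11 (SE; adjusted p = 0.00129). SESN2, an inhibitor of the growth kinase mTORC1, was at 9.98, 10.21 and 10.04 with IgG and at 10.54, 10.59 and 10.81 with Fc beads (0.57 ± 0.10). PPP1R15A, which restores translation after stress, was at 9.42, 9.65 and 9.24 with IgG and at 10.00, 10.02 and 10.02 with Fc beads (0.58 ± 0.09). The groups did not overlap for these or for any of the 17, which is no separate evidence, since the same arrays made the calls and 10.7% of all genes had Fc bead arrays wholly above the IgG arrays. Also higher were CTH, an enzyme of cysteine synthesis (0.62), DDIT4, another mTORC1 inhibitor (0.49), the amino acid carrier genes SLC7A5 (0.48) and SLC3A2 (0.47), CHAC1, which degrades glutathione (0.48), and DDIT3, which encodes CHOP (0.48). GDF15, a stress cytokine, was called at 0.65 from a probe set that can detect related transcripts, and its other probe sets gave −0.11 and −0.17.

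ATF4 itself, which is regulated mainly at translation, changed by 0.03 without passing, and the asparagine synthetase gene ASNS rose by only 0.25. Among 24 genes of ER folding, just ERN1, the stress sensor IRE1 (0.51 ± 0.10), and EDEM1, which targets misfolded glycoproteins for degradation (0.25 ± 0.06), rose, and the list's median was −0.03. EDEM1 lost its call when any of the 6 arrays was left out, and ERN1 without Fc bead array 1 or IgG array 1. Dimmer probe sets of ERN1 gave 0 and 0.06, and its call was also lost with the mean of all its probe sets. No heat shock gene of 15 passed in limma's test (4 at an unadjusted p under 0.05, and 1 passed lower with a trended and robust variance).

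The arrays of each group were not alike in this list. IgG array 2 was the highest of its group for 16 of the 17 ATF4 genes, and Fc bead array 2 the lowest of its group for 13. The list count was 10 without Fc bead array 1, 11 without Fc bead array 3, 11 without IgG array 1, and 1 when only these 6 arrays were fitted. The list's median stayed between 0.29 and 0.41 as each array was left out.

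Immediate early factors, the first genes transcribed after a growth or stress signal, showed 12 of 26 higher and 0 lower. The share higher over all genes was 1.64%, and the list's median was 0.31. EGR1, a zinc finger factor induced through the ERK pathway, was at 10.32, 10.14 and 10.37 with IgG and at 10.98, 11.01 and 11.05 with Fc beads. The Fc bead arrays were tightly grouped and above all IgG arrays (0.74 ± 0.09, adjusted p = 0.00015). Dimmer probe sets of EGR1 gave 0.61 and 0.12. MAFF, a small MAF protein, was at 9.81, 10.08 and 10.08 with IgG and at 10.85, 10.67 and 11.04 with Fc beads (0.87 ± 0.10, adjusted p = 0.000123). ATF3, a stress-induced repressor, rose by 0.62 ± 0.12, EGR3 by 0.54 ± 0.12 and KLF4 by 0.49 ± 0.09. EGR3 was dim, with a mean level of 5.04, and lost its call without Fc bead array 1 or any IgG array. FOS and JUN changed by 0.39 and 0.38 and did not pass (adjusted p = 0.0535 and 0.0698), while the AP-1 partners FOSL1 and FOSL2 passed at 0.38 each. The list count was 7 without Fc bead array 1, 6 without IgG array 1, 7 without IgG array 3 and 2 with these 6 arrays alone. It was 5 of 18 when cross-hybridising probe sets were left out.

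In the list of MAP kinase feedback genes 5 of 21 rose and 0 fell, where 1.64% of all genes rose and 0.44% fell. ERRFI1, which binds and inhibits the EGF receptor, was at 11.14, 11.18 and 11.09 with IgG and at 11.72, 11.58 and 11.81 with Fc beads (0.57 ± 0.06, adjusted p = 3.39e-05). DUSP1, a phosphatase of MAP kinases, rose by 0.69 ± 0.14, DUSP5 by 0.43 ± 0.07, the ERK pathway inhibitor SPRY2 by 0.43 ± 0.10 and the ETS factor ETV5 by 0.30 ± 0.08. Dimmer probe sets of DUSP1 gave 0.08 and 0.28, and its call was lost without Fc bead array 1 or 3 or IgG array 1 or 3. DUSP6 and SPRY4, common readouts of ERK activity, changed by −0.01 and −0.04. EGFR, whose gene is very highly expressed in this line, was at 13.74, 13.80 and 13.78 with IgG and at 14.06, 14.04 and 14.06 with Fc beads (0.28 ± 0.05). Its ligand gene HBEGF rose by 0.40 ± 0.09. These were 2 of 11 EGFR family genes, and the count was 0 without Fc bead array 1 or IgG array 1 and 1 without Fc bead array 3 or IgG array 3, leaving out each alone, and 0 with these 6 arrays alone. HBEGF also lost its call after repeated quantile normalization. The feedback count was 2 without Fc bead array 1, Fc bead array 3, IgG array 1 or IgG array 3, leaving out each alone.

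NF-kB and cytokine genes rose in a small subset. Of 22 NF-kB subunits and feedback genes, 4 passed higher (1.64% of all genes did) and 0 lower, with a median of 0.09. RELB, a subunit of the non-canonical pathway, was at 8.38, 8.39 and 8.25 with IgG and at 9.01, 9.13 and 8.90 with Fc beads (0.67 ± 0.09, adjusted p = 0.000626). NFKB2, its usual partner, was at 7.97, 8.20 and 7.87 with IgG and at 8.60, 8.57 and 8.38 with Fc beads (0.50 ± 0.09). The groups did not overlap in either gene. The signal-limiting gene TNFAIP3 rose by 0.33 and TNFAIP2 by 0.36, whereas NFKBIA (0.30), NFKB1 (0.12) and RELA (0.08) did not pass. The number was 1 without Fc bead array 1, 2 without IgG array 1, 2 without IgG array 3 and 1 with these 6 arrays alone.

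Among 32 chemokine and cytokine genes, 4 rose, against 1.64% of all genes, and 0 fell. CXCL8, the neutrophil attractant interleukin 8, was at 8.19, 7.90 and 8.26 with IgG and at 9.0, 8.94 and 9.49 with Fc beads, a change of 1.03 ± 0.15 (SE; adjusted p = 0.00129). LIF, a cytokine of the interleukin 6 family, was at 7.82, 8.06 and 7.78 with IgG and at 8.72, 8.59 and 8.78 with Fc beads (0.81 ± 0.11). Every Fc bead array was above every IgG array for both. CSF1, the macrophage growth factor, rose by 0.43 ± 0.08. CXCL2 rose by 0.49 ± 0.09 from a low level and gave 0.02 without cross-hybridising probe sets. Its call was also lost without IgG array 1. IL6 (0.08), IL1B (−0.18), TNF (−0.01), CXCL1 (0.16) and CCL20 (0.25) did not pass. Of 23 genes of Toll-like and interleukin 1 receptor signalling, 0 rose and 1 (CD14, with the losses given above) fell. In the list of 23 phagocytic, Fc and scavenger receptors only MERTK was called, at 0.28, with an adjusted p of 0.0499 that was lost under most alternatives.

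Target genes of YAP passed higher in 13 of 21 cases, against 1.64% of all genes, and lower in 0, with a median of 0.36. CCN2, a matrix-associated growth factor and a standard YAP readout, was at 6.45, 6.56 and 6.69 with IgG and at 7.42, 7.07 and 7.88 with Fc beads (0.89 ± 0.14, adjusted p = 0.00164). The Fc bead arrays differed among themselves by more than the IgG arrays but lay above all of them. LATS2, a kinase that inhibits YAP, was at 9.23, 9.25 and 9.34 with IgG and at 9.77, 9.66 and 9.79 with Fc beads (0.46 ± 0.07). Also higher were AJUBA (0.51), AMOTL2 (0.49), NT5E, which encodes the surface nucleotidase CD73 (0.47), TGFB2 (0.45), the coagulation trigger F3 (0.38) and CCN1 (0.36). ANKRD1 (0.06) and AXL (−0.05), other common YAP readouts, did not pass. No gene of 24 for actin and focal adhesions passed in limma's test (2 at an unadjusted p under 0.05, and 0 with a trended and robust variance). IgG array 2 was the highest of its group for 10 of the 13 YAP genes and Fc bead array 2 the lowest for 12. The list count was 6 without Fc bead array 1, 7 without Fc bead array 3, 6 without IgG array 1, 8 without IgG array 3 and 2 with these 6 arrays alone.

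Several genes outside these groups were among the largest rises. LBH, a transcriptional regulator, was at 9.59, 10.09 and 9.69 with IgG and at 10.71, 10.47 and 11.10 with Fc beads (0.97 ± 0.16). KLF9, a zinc finger factor known for its glucocorticoid response, was at 7.15, 7.36 and 7.53 with IgG and at 8.63, 8.08 and 8.14 with Fc beads (0.94 ± 0.14). Dimmer probe sets of KLF9 gave 0.79, 0.05, 0.07 and 0.24. The calls of LBH and KLF9 were lost when only these 6 arrays were fitted. IRS2, an adaptor of the insulin and IGF receptors, was at 10.03, 10.01 and 9.94 with IgG and at 10.74, 10.81 and 10.93 with Fc beads (0.83 ± 0.09). No array of one group reached the other for these 3 genes, which the rule that named the largest rises required. Of 12 genes of the aryl hydrocarbon receptor battery 5 rose, against 1.64% of all genes. They were SLC7A5, CYP1B1 (0.43), AHR itself (0.39), NQO1 and TIPARP (0.26). CYP1A1, the receptor's most specific target, changed by 0.20 ± 0.16 and did not pass. SLC7A5 and NQO1 are also in the ATF4 and NRF2 lists. This count was 3 without Fc bead array 1, Fc bead array 3 or IgG array 1, leaving out each alone, and 0 with these 6 arrays alone.

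The largest falls were in CLCA2 and MUCL1, followed by TFRC and DAPL1. CLCA2, a calcium-activated chloride channel regulator, was at 9.99, 9.97 and 10.15 with IgG and at 9.07, 8.94 and 8.97 with Fc beads, and fell by 1.05 ± 0.08 (SE; adjusted p = 3.94e-07). MUCL1, a small breast mucin, was at 11.73, 11.55 and 11.51 with IgG and at 10.59, 10.68 and 10.57 with Fc beads, and fell by 0.98 ± 0.08 (SE; adjusted p = 1.01e-06). The groups were far apart in both genes. AGR2, a disulfide isomerase needed for mucin folding, was at 11.42, 11.23 and 11.34 with IgG and at 10.75, 10.87 and 10.73 with Fc beads, and fell by 0.54 ± 0.07. The secreted proteins MSMB and CRISP3 fell by 0.65 ± 0.10 and 0.55 ± 0.09. CYP4Z1, a mammary fatty acid hydroxylase, fell by 0.53 ± 0.05, and its near-identical copy CYP4Z2P gave −0.59, values that cannot be taken as separate.

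Of 30 luminal markers and secretory products, 4 fell (MSMB, CRISP3, AGR2 and CEACAM6) and 0 rose, with a median of −0.01. Over all genes 0.44% fell. The call of CEACAM6 was lost when any of the 6 arrays was left out, and the other 3 kept theirs. The luminal factors FOXA1 (−0.26), SPDEF (−0.20), ESR1 (0.11) and GATA3 (0.21), and the keratins KRT8 (−0.07), KRT18 (0.07) and KRT19 (−0.08), did not pass. Other falls were in DAPL1 (0.67 ± 0.10 lower) and in DIRAS3, a growth-restraining RAS relative, which fell by 0.59 ± 0.08. Of 59 histone genes measured, 5 fell and 0 rose, where 0.44% of all genes fell. This set was singled out after its values were seen. The 5 were H2BC5 (−0.54), H2AC6 (−0.45), H2BC12L (−0.38), H2BC12 (−0.34) and H2BC6 (−0.25). Histone copies are near-identical, so that these are not independent readings. Of 28 genes of DNA replication none passed in limma's test (2 at an unadjusted p under 0.05, and 0 with a trended and robust variance), and of 30 mitotic genes only BIRC5, survivin, did (−0.22 ± 0.05), a call lost when any of the 6 arrays was left out.

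Since Fc beads are the control for a Notch ligand, Notch target genes were examined singly. None of the 12 canonical targets passed in limma's test, 1 had an unadjusted p under 0.05, and 0 passed with a trended and robust variance. The 12 include the receptor genes NOTCH1 and NOTCH3. Only 6 of the 12 were above the level of the median gene. HES5 and HEY2, with mean levels of 5.03 and 6.21, were among the dim members, for which the lack of a call says little. HES1, the best-known target, was at 10.66, 10.77 and 10.73 with IgG and at 10.70, 10.74 and 10.78 with Fc beads. The arrays overlapped, and the difference was 0.02 with a 95% interval of −0.11 to 0.16. NRARP, a feedback inhibitor of Notch, was at 8.35, 8.34 and 8.28 with IgG and at 8.50, 8.41 and 8.30 with Fc beads, a difference of 0.08 (−0.07 to 0.22). For HEY1 the difference was −0.05 (−0.18 to 0.09) and for NOTCH3 it was 0.21 (−0.09 to 0.51). In the cells given A13 the means of HES1 and NRARP were 11.05 and 10.23, and A13 stood 1.90 ± 0.07 above IgG for NRARP, beyond the upper end of the interval for Fc beads.

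Some genes that are high with the agonists in these same data were nonetheless higher with Fc beads. This list of 10 was chosen from earlier results on these arrays, so its direction is not independent evidence. FAM43A (0.56 ± 0.12), SERPINA3, a protease inhibitor (0.49 ± 0.07), MYC (0.44 ± 0.07) and FOXQ1, a forkhead factor (0.38 ± 0.09), rose, and ALDH1A1, a retinal dehydrogenase, fell by 0.35 ± 0.08. Of these rises 2 were left without Fc bead array 1, IgG array 1 or IgG array 3, leaving out each alone, and the fall was lost without Fc bead array 2 or 3 or IgG array 2 or 3. MYC was at 10.74, 11.01 and 10.89 with IgG and at 11.36, 11.26 and 11.33 with Fc beads. Its groups did not overlap, and its mean with A13 was 12.21. OLFM4, whose mean was 7.34 with IgG and 11.32 with A13, was at 7.79, 7.47 and 7.35 with Fc beads and overlapped the IgG arrays.

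**Figure D3:**
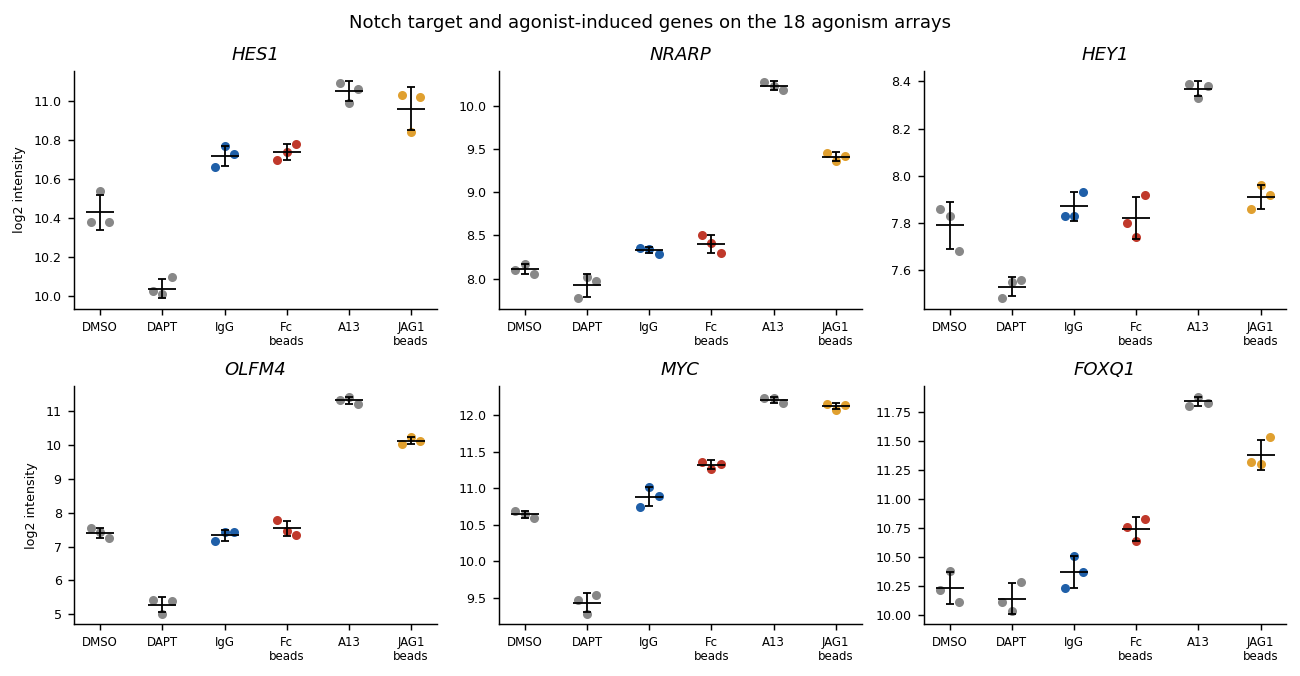
Log2 intensity (y axis) of 3 canonical Notch targets (HES1, NRARP, HEY1) and 3 genes high with the agonists (OLFM4, MYC, FOXQ1) on the 18 agonism arrays by group (x axis). Points are arrays, and bars with whiskers are means ± SD over 3 arrays. The Fc bead arrays (red) overlap the IgG arrays (blue) for HES1, NRARP, HEY1 and OLFM4 and lie above them for MYC and FOXQ1.

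A second comparison of beads with a soluble agent was made from arrays that enter neither group above: JAG1-Fc beads against A13. There the agonist differs as well as the beads. In that comparison 1259 genes passed (6.37%), 934 higher (4.72%) and 325 lower (1.64%). Of the 324 genes higher with Fc beads, 315 (97.2%) had the same sign there and 222 (68.5%) passed in the same direction, which is 23.8% of that comparison's higher calls. FOXQ1 alone passed in the opposite direction. Of the 87 lower genes, 75 (86.2%) had the same sign and 34 (39.1%) passed lower, or 10.5% of the lower calls there. Across all 19775 genes the correlation of the log2 changes was 0.539, a description over genes, which are not independent. The share of all genes with the same sign in both comparisons was not computed, so the same-sign shares have no background beside them.

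GPNMB was 1.97 ± 0.08 higher with JAG1 beads than with A13, and TFRC was 0.91 ± 0.05 lower. CLCA2 was 0.99 ± 0.08 lower there, and DAPL1 was 1.02 ± 0.10 lower. All 12 passing NRF2 targets passed higher in this comparison too, as did 11 of the 17 ATF4 genes, 10 of the 13 YAP genes, 9 of the 12 immediate early factors and 4 of the 4 NF-kB genes. Of the 4 passing chemokine and cytokine genes, LIF (0.70) and CSF1 (0.67) passed, CXCL8 was at 0.32 ± 0.15 (adjusted p = 0.254) and CXCL2 at −0.30. All 4 of the luminal falls (MSMB, CRISP3, AGR2 and CEACAM6) passed lower.

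**Figure D4:**
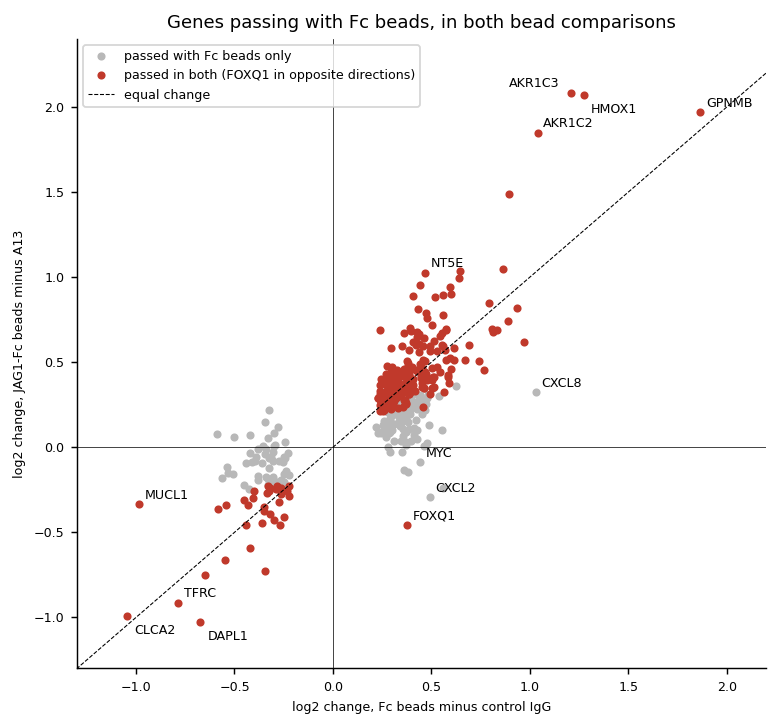
Log2 change with Fc beads against control IgG (x axis) and with JAG1-Fc beads against A13 (y axis) for the 411 genes that passed in the first comparison. Red points passed in both, grey points in the first only, and the dashed line marks equal change. HMOX1, AKR1C2 and AKR1C3 lie above the line, GPNMB near it, and FOXQ1, MYC and CXCL2 have values below 0 on the y axis, of which FOXQ1 passed.

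The size of the bead difference was itself tested between the comparisons, and 36 genes differed (0.182%). Among the named genes HMOX1 differed by 0.80 ± 0.10 (2.07 with JAG1 beads, 1.27 with Fc beads; adjusted p = 0.000802), AKR1C2 by 0.81 ± 0.09 and AKR1C3 by 0.88 ± 0.16. AKR1B10 differed by 0.48 ± 0.09 as well, but its mean was 12.14 with JAG1 beads and 12.55 with Fc beads. The A13 mean of AKR1B10 was 11.25, against 12.15 with IgG. GPNMB and TFRC were not among the 36. MUCL1 fell by 0.98 with Fc beads and by 0.33 with JAG1 beads, where its level with A13 was already 9.79. The 36 calls became 8 without cross-hybridising probe sets and 10 to 28 as single arrays were left out.

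On levels, 171 of the 324 higher genes (52.8%) had all 3 Fc bead arrays above all 12 arrays without beads, where 3.08% of all genes did. For 139 of them the 3 JAG1 bead arrays were above those 12 as well. Of the 87 lower genes, 20 (23%) had all 3 Fc bead arrays below those 12, where 1.18% of all genes did, and 16 of them had the JAG1 bead arrays below as well. The rule for calling a gene already used the Fc bead and IgG arrays, so these shares are descriptions. GPNMB, HMOX1 and TFRC are of this kind. The mean of HMOX1 was 8.54 in DMSO, 8.86 in DAPT, 8.60 with IgG and 8.27 with A13, against 9.88 with Fc beads and 10.34 with JAG1 beads. That of TFRC was 13.33, 13.22, 13.46 and 13.56 in the same 4 groups, against 12.68 and 12.64.

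AGR2 and MUCL1 had another order of levels. AGR2 averaged 12.34 in DAPT, 11.41 in DMSO, 11.33 with IgG, 10.78 with Fc beads, 9.86 with A13 and 9.52 with JAG1 beads, and MUCL1 averaged 11.97, 10.88, 11.60, 10.61, 9.79 and 9.45 in the same groups. The DMSO and IgG arrays of AGR2 overlapped. Their Fc bead level thus lay between those of IgG and the agonists, unlike that of TFRC. In the comparison of A13 with DAPT, which shares no array with Fc beads or IgG, 62 of the 87 lower genes passed lower (71.3%, against 16.2% of all genes) and 5 passed higher. Of the 324 higher genes, 171 passed higher there (52.8%, against 12% of all genes) and 63 passed lower. The DAPT arrays received DAPT again after the washout and the A13 arrays did not, so that comparison holds Notch activity and the absence of DAPT together. In DMSO against DAPT, which also shares no array, 23 of the 324 passed higher (7.1%, against 8.31% of all genes) and 100 lower (30.9%, against 12.4%), and of the 87 lower genes 16 passed higher and 28 lower (32.2%).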

How the data were processed

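RNA of MDA-MB-468 cells was hybridised to 26 Affymetrix HG-U133 Plus 2.0 arrays, 18 of them from the agonism experiment used here (6 groups of 3). The deposited table gives a linear intensity for each probe set on each array. The submitters' processing notes name RMA and R 2.10. RMA makes array distributions alike, so a change that moved most transcripts would be reduced. Agonism array medians lay at log2 6.84 to 6.88, within 7.12 to 32597 in intensity, and the number of arrays limits the precision (median SE 0.081). Log2 differences between arrays of a group had an SD of 0.148 to 0.183 for Fc beads and 0.141 to 0.172 for IgG.

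Deposited intensities were converted to log2. Of 54675 probe sets, 41091 had 1 gene symbol in the platform annotation, 1801 several, and 41037 were matched to RefSeq (GRCh38.p14). For a gene with several single-gene probe sets the brightest on average was used, giving 19775 genes. Those whose names end in _x_at or _s_at are called cross-hybridising. No gene was filtered. Table columns of other samples numbered 0.

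A single limma model (version 3.58.1, R 4.3.3; lmFit with eBayes) was fitted to the 18 arrays, with 12 residual degrees of freedom, and was tested on simulated data. Benjamini-Hochberg adjustment ran over the 19775 genes, and a gene "rose" or "fell" at an adjusted p under 0.05. Every ± beside a change is a standard error of a log2 difference. The labels give no replicate numbers, so arrays are numbered in listed order, and no batches or dates.

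Named genes, those followed singly through the alternatives, were chosen by rule. They are the 20 largest rises and 20 largest falls with arrays that do not overlap, up to 6 passing members of each of 44 lists, and all Notch and agonist-induced genes. Other genes given with a value, such as GCLM, ME1, DDIT3, FOSL1 and H2BC12, were not followed in this way. Members and lists were chosen with earlier results of these data known. Alternatives changed the scaling, the probe set choice, the level filter, an offset of 32, the variance model, the arrays fitted and the arrays left out. List counts under alternatives were added after seeing the data. Python 3.11.15 with matplotlib 3.10.9 drew the figures.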

Additional observations from a re-analysis of the deposited data

Results flagged for a closer look

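The bead difference was compared between JAG1-Fc beads against A13 and Fc beads against control IgG, and 36 genes differed in limma's test. Differences below are those with JAG1 beads minus those with Fc beads, on the log2 scale. The agonist also differs between the comparisons, and its part was not tested.

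The bead difference was larger with JAG1 beads for HMOX1 (0.80), AKR1C1 (0.59), AKR1C2 (0.81), AKR1C3 (0.88) and NT5E (0.56). The soluble groups differed too. Means with A13 were below those with IgG for HMOX1 (8.27 against 8.60), AKR1C1 (12.22 against 12.45), AKR1C2 (11.78 against 12.10) and NT5E (9.64 against 10.83). That of AKR1C3 was not (7.27 against 7.09). NT5E was lower with JAG1 beads (10.67) than with Fc beads (11.29). MUCL1 (0.65) fell less with JAG1 beads than with Fc beads, and RCSD1 (0.56) fell with Fc beads and was 0.06 higher with JAG1 beads than with A13 without passing, both from a lower level in the A13 cells. For OLFM4 (−1.39), NRARP (−0.89), FOXQ1 (−0.83), CXCL2 (−0.79) and MYC (−0.53) the value was lower with JAG1 beads than with A13, or nearly equal in the case of MYC, whereas it was level or higher with Fc beads than with IgG.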

How the results depend on the processing

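The number of genes passing with Fc beads against IgG, 411 as reported, was 849 among genes above the median level, 208 without cross-hybridising probe sets, 761 with a trended and robust variance, 61 with these 6 arrays alone, and 141 to 361 as single arrays were left out. For JAG1 beads against A13, 1259 as reported, it was 1894 among genes above the median level, 831 without cross-hybridising probe sets, and 584 to 1285 as arrays were left out. As deposited 934 were higher and 325 lower, 656 and 459 after median centring, and 791 and 686 after repeated quantile normalization. The difference of the bead comparisons, 36 as reported, gave 73 above the median level, 61 with an offset of 32, 22 with the mean of all probe sets, 8 without cross-hybridising probe sets, 79 with a trended and robust variance, 12 with only the 4 groups, and 10 to 28 as arrays were left out. Of 101 named genes that passed, 35 kept the call in every setting run and 66 lost it or changed sign at least once. The call was lost for 57 with these 6 arrays alone, for 40 without IgG array 1 and for 35 without Fc bead array 1. Without cross-hybridising probe sets 4 changed sign: AKR1C2 (−0.02), GDF15 (−0.11), TMT1A (0.04) and MERTK (−0.03), each from a dimmer probe set. Other causes were not tested. No paired analysis was possible because the labels and columns carry no replicate numbers. Intensities carry no detection calls, so dim genes have only a level.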
